A study of Homo sapiens with 12 samples.

Results

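The genes described here are the Src-family kinases FGR and LYN, the kinases SYK and BTK, the adaptor BLNK, the phospholipase PLCG2, and the lipid phosphatases INPP5D and INPP4B. A 9th gene, PIK3AP1, an adaptor of PI3-kinase, was named with them, but no probe set that pairs with 1 gene carries its symbol. It was not analysed here. Probe sets that pair with several genes were not searched for any of these genes. The other 8 genes had 21 probe sets, out of 41091 probe sets that pair with 1 gene and 19775 genes in all. They were chosen by name, with the response of at least INPP4B and BLNK to PMA without doxycycline already known, so that response is given below as a description with no test. The PMA response with doxycycline, which comes from the 6 other arrays, was tested.

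In myeloid and B cells, Src-family kinases phosphorylate tyrosines in the tails of receptors or their partner chains, and SYK docks there and becomes active. SYK phosphorylates BLNK, a scaffold on which BTK and PLCG2 meet, and PLCG2 then cleaves a membrane phosphoinositide into a calcium-releasing sugar phosphate and diacylglycerol, the lipid that phorbol esters such as PMA mimic. PI3-kinase makes the lipid that anchors BTK and AKT at the membrane, INPP5D (SHIP1) converts that lipid to another, and INPP4B removes a phosphate from the product.

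RNA from 12 cultures of U937, a human cell line from a histiocytic lymphoma that resembles an early monocyte, was hybridised to 12 Affymetrix HG-U133 Plus 2.0 arrays. Every culture, controls included, came from U937 cells stably transduced with a TRIPZ Tet-On cassette (1 hairpin clone) and grown in puromycin. The cassette makes a hairpin RNA against ZXDC1/2, products of the zinc finger gene ZXDC, when doxycycline is present. The groups, each with 3 arrays named as biological replicates 1 to 3, were vehicle (0.1% DMSO), vehicle with doxycycline (0.5 µg/mL daily for 4 days), PMA (100 nM), and PMA with doxycycline at the same doses, with PMA or vehicle given for 3 days. PMA makes U937 cells differentiate along the monocyte and macrophage line. The labels describe no culture with a hairpin against another target, so doxycycline and the hairpin cannot be told apart. All values are RMA signals on the log2 scale, on which a difference of 1 is a doubling, and a probe set's level is not set against that of another probe set.

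Array medians lay between 5.16 and 5.22, and the correlation within groups was 0.987 to 0.996. RNA quality, read from the ACTB controls as 3' minus 5' signal, set the 4 arrays numbered 1 apart: they had 1.99 to 2.72, against 0.71 to 1.64 on the other 8. The same measure from the GAPDH controls did not set them apart, with 0.17 to 0.25 on the 4 arrays and 0.12 to 0.25 on the other 8. ZXDC signal was 8.01, 7.63 and 7.69 in vehicle and 7.16, 7.25 and 7.44 in vehicle with doxycycline, and it was 7.96, 7.89 and 7.51 in PMA against 7.39, 7.43 and 7.02 in PMA with doxycycline. It was lower with doxycycline in both agents, without overlap of the groups, by 0.49 (SE 0.16) and 0.50 (SE 0.16), with adjusted p of 1.00 and 0.613 in the limma fit over all genes. Of 10 measured monocyte and macrophage markers, 6 rose with PMA in the doxycycline arrays, among them the integrin ITGAX by 5.03 and ITGAM by 4.77, MNDA fell by 1.77, and 3 did not pass the test. T and NK cell markers (2 of 10 rose) and platelet and erythroid markers (1 of 6 rose) held no fall.

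To show where the regulated genes start, promoters are printed for BLNK, INPP4B and FGR, the genes with the widest differences, and for BTK as one of the genes with a small one. Each runs from 250 bases before to 50 bases after a RefSeq start site (GRCh38.p14), 5′ to 3′ on the minus strand, on which all these genes lie. The windows are chr10:96271520-96271819 for BLNK, chr4:142846252-142846551 for the farthest upstream of 6 listed INPP4B start sites, chr1:27635136-27635435 for the first of 2 listed FGR start sites and chrX:101390747-101391046 for the first of 2 BTK start sites. Capitals mark GAGGAA, a core bound by the myeloid and B-cell factor PU.1, and GGAAGT, a core of the wider ETS family, on either strand.
BLNK: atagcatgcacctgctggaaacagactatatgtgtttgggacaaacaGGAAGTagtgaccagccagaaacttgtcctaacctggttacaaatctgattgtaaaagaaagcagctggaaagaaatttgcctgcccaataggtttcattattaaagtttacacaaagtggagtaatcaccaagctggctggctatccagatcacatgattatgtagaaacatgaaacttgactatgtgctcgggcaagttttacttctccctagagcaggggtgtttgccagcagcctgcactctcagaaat
INPP4B: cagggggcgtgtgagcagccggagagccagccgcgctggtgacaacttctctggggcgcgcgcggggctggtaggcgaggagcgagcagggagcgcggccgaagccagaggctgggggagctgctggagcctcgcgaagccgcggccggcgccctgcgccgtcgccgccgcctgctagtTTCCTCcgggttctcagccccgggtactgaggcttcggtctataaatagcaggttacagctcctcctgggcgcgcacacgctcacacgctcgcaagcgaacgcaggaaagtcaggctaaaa
FGR: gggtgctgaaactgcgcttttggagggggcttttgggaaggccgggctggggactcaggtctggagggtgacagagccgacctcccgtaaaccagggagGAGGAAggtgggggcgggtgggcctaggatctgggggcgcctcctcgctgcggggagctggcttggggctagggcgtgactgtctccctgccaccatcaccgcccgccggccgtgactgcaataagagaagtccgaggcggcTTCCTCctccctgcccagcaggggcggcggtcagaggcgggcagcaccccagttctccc
BTK: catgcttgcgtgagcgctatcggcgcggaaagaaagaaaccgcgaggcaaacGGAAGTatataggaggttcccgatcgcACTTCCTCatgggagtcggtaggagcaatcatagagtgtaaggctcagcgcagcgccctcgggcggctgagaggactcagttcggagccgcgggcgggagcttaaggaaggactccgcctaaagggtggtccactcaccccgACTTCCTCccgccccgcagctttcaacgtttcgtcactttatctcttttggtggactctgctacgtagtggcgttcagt

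The BLNK window held 1 GGAAGT, at position -203 from the start, and no GAGGAA. FGR had GAGGAA at -151 and, on the other strand, at -9, and no GGAAGT. The INPP4B window had 1 GAGGAA, at -71, whereas BTK had 2 GAGGAA and 3 GGAAGT, with both cores overlapping in the string GAGGAAGT at each of its 2 GAGGAA sites. For the 7 genes other than LYN, 16 start sites were listed, and GAGGAA lay within 12 of the 16 windows and GGAAGT within 7. Among all 35116 promoters of the same length, 27.9% held GAGGAA and 22.8% held GGAAGT. The phorbol ester response element TGANTCA, the AP-1 site, was in 0 of the 16 windows and in 7.71% of all promoters. Some of the 16 windows overlap, so they are not independent, and a match shows letters and not binding.

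**Figure D1:**
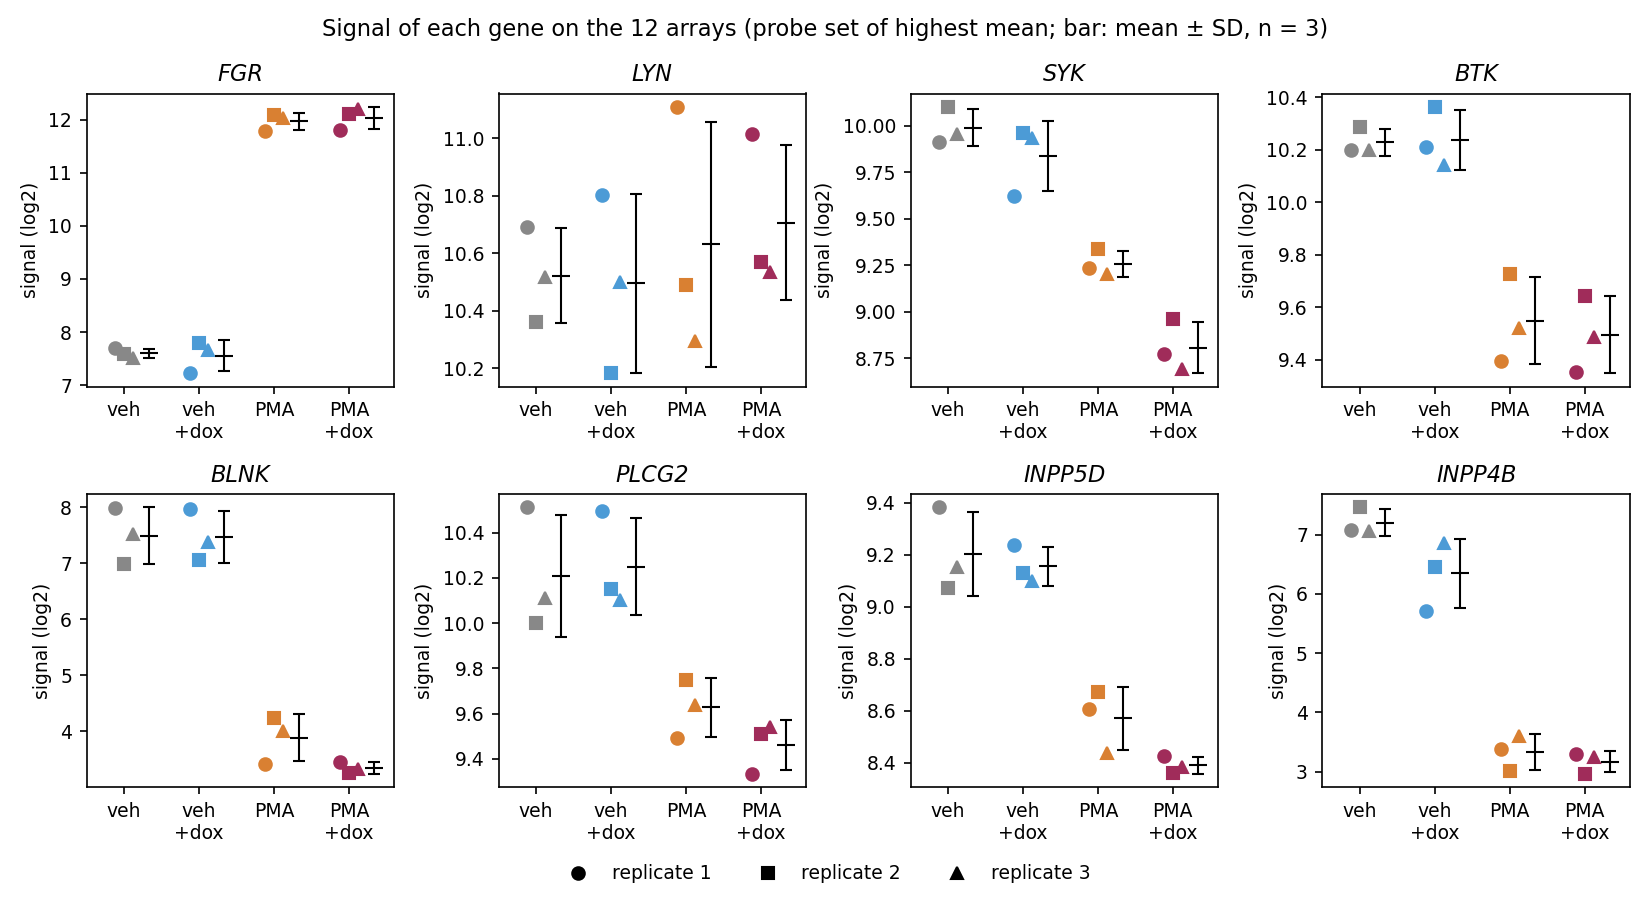
Signal (log2) of the 8 measured genes on each of the 12 arrays, from the probe set of highest mean, by group. Points are arrays and bars are the mean and SD of 3 arrays. BLNK and INPP4B lie lower and FGR higher in both PMA groups, while the LYN groups overlap.

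The kinase at the top of the relay that differed most was FGR, a Src-family kinase of myeloid cells, read by 1 probe set. Its signal was 7.70, 7.58 and 7.52 in vehicle and 11.78, 12.09 and 12.02 in PMA, and it was 7.22, 7.79 and 7.65 in vehicle with doxycycline and 11.80, 12.10 and 12.20 in PMA with doxycycline. All 6 PMA arrays lay above all 6 vehicle arrays, and the arrays with and without doxycycline overlapped in both agents. Without doxycycline the difference was 4.36, or 20.6-fold. With doxycycline FGR rose by 4.47 (SE 0.15), or 22.2-fold, with an adjusted p of 1.24e-10 in limma over all genes. The arrays measure RNA from whole cultures, so a change in RNA per cell and in the share of cells that express a gene cannot be told apart.

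LYN, the Src-family kinase that can both start and dampen signalling from ITAM receptors, has 3 probe sets, and none of them passed the test. On the representative, the one of highest mean, vehicle gave 10.69, 10.36 and 10.52, vehicle with doxycycline 10.80, 10.18 and 10.50, PMA 11.11, 10.49 and 10.30, and PMA with doxycycline 11.02, 10.57 and 10.53. The groups overlapped in every comparison. PMA with doxycycline minus vehicle with doxycycline was 0.21 (SE 0.21), with a 95% interval of -0.24 to 0.66 and a limma adjusted p of 0.527. Without doxycycline the difference was 0.11, and it was -0.13 without PMA replicate 1. On this probe set the array numbered 1 was the highest of its group in all 4 groups, the same arrays that stood apart in the ACTB measure above, although not in the GAPDH measure, and the part of RNA quality in that order was not tested. The other LYN probe sets differed by 0.18 (SE 0.24) and 0.16 (SE 0.19) with doxycycline.

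SYK, the kinase that docks on phosphorylated receptor tails, was lower in PMA. On its representative probe set the values were 9.91, 10.10 and 9.96 in vehicle, 9.62, 9.96 and 9.93 in vehicle with doxycycline, 9.24, 9.34 and 9.20 in PMA, and 8.77, 8.96 and 8.69 in PMA with doxycycline. Both vehicle groups came highest and overlapped each other; PMA lay below them, and PMA with doxycycline lay below PMA, each without overlap. PMA without doxycycline was 0.73 lower. With doxycycline SYK fell by 1.03 (SE 0.12), to 48.9% of the signal, with a limma adjusted p of 1.08e-05. Of the 4 SYK probe sets 3 fell, by 1.03 to 1.20, and 244023_at differed by -0.20 (SE 0.21; adjusted p 0.580 over all probe sets).

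BTK, the Tec-family kinase that phosphorylates PLCG2, gave 10.20, 10.29 and 10.20 in vehicle and 10.21, 10.36 and 10.14 in vehicle with doxycycline. In PMA it gave 9.40, 9.72 and 9.52, and in PMA with doxycycline 9.35, 9.64 and 9.49. Every PMA array lay below every vehicle array, by a small step against the range of the array. The difference was -0.68 without doxycycline, and with it BTK fell by 0.74 (SE 0.12), to 59.7% of the signal, with a limma adjusted p of 0.000177.

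The adaptor BLNK, known from B cells, was far lower in PMA. Its 1 probe set gave 7.99, 6.98 and 7.52 in vehicle, 7.98, 7.05 and 7.38 in vehicle with doxycycline, 3.42, 4.24 and 4.0 in PMA, and 3.45, 3.25 and 3.32 in PMA with doxycycline. All PMA arrays were lower than all vehicle arrays, and they were dim: the PMA means lay at the 26.9th and, with doxycycline, the 17.6th percentile of all probe sets. The difference without doxycycline was -3.61. With doxycycline BLNK fell by 4.13 (SE 0.27), with a limma adjusted p of 5.00e-08. These are differences in array signal whose lower side lies near the lowest signals of the array, so no fold is given and the fall is not ranked against that of INPP4B. Vehicle arrays spread over about 1 unit (SD 0.51 and 0.47, n = 3), and replicate 1 was the highest in both vehicle groups.

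B-cell markers did not move as a group with BLNK. Of 10 listed, 9 were measured, and with doxycycline the inhibitory receptor CD22 rose by 1.96 (SE 0.46), the transcription factor PAX5 fell by 1.16 (SE 0.22), and 7 did not pass. Their summed log2 signal was 44.0 to 44.3 in vehicle, 43.5 to 44.0 in vehicle with doxycycline, 43.7 to 44.3 in PMA and 44.0 to 45.7 in PMA with doxycycline. In such a sum the CD22 rise and the PAX5 fall offset each other. No marker is at 0 on this scale, but CR2 and FCRL1 were near 3 in every group. MS4A1, which encodes CD20, averaged 4.12 in vehicle, 4.06 in vehicle with doxycycline, 3.76 in PMA and 4.12 in PMA with doxycycline. In vehicle BLK, VPREB3 and CD79B averaged 4.85, 4.44 and 5.15, and PAX5, CD79A and CD22 were brighter, at 7.27, 6.16 and 6.08. The low markers had less room to fall than BLNK.

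PLCG2, the phospholipase C of B cells and myeloid cells, has 4 probe sets that differ in response. The representative gave 10.51, 10.00 and 10.11 in vehicle, 10.49, 10.15 and 10.10 in vehicle with doxycycline, 9.49, 9.75 and 9.64 in PMA, and 9.33, 9.51 and 9.54 in PMA with doxycycline. It was lower on all PMA arrays, by 0.58 without doxycycline, and with doxycycline it fell by 0.79 (SE 0.15), with a limma adjusted p of 0.000759. Another probe set, 230917_at, gave 7.09, 7.07 and 7.40 in vehicle, 6.83, 6.95 and 7.16 in vehicle with doxycycline, 5.62, 5.79 and 5.68 in PMA, and 4.79, 5.27 and 5.51 in PMA with doxycycline. It fell by 1.79 (SE 0.17), or 3.45-fold, with an adjusted p of 2.58e-06 over all probe sets. Both therefore moved one way, by unequal amounts. The other probe sets were dim, at 3.59 to 4.12 and 2.77 to 2.92 in group means, and did not pass the test.

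INPP5D, or SHIP1, which removes the lipid that PI3-kinase makes, was lower in PMA on 2 of its 3 probe sets. The representative gave 9.38, 9.07 and 9.15 in vehicle, 9.24, 9.13 and 9.10 in vehicle with doxycycline, 8.61, 8.67 and 8.44 in PMA, and 8.43, 8.36 and 8.38 in PMA with doxycycline. No PMA array reached the vehicle arrays. The difference was -0.63 without doxycycline, and with it the gene fell by 0.76 (SE 0.11), to 58.9% of the signal, with a limma adjusted p of 7.70e-05. Probe set 203331_s_at fell by 0.68 (SE 0.16), and 1568943_at differed by -0.06 (SE 0.12). Over the mean of the 3 probe sets the fall was 0.50, with an adjusted p of 0.000851.

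INPP4B, which acts on the lipid that INPP5D forms, was also far lower in PMA. Its representative gave 7.09, 7.46 and 7.06 in vehicle, 5.72, 6.46 and 6.86 in vehicle with doxycycline, 3.38, 3.01 and 3.60 in PMA, and 3.30, 2.96 and 3.25 in PMA with doxycycline. Both PMA groups were dim, at the 17.7th and 14.6th percentile, and lay below every vehicle array. The difference was -3.87 without doxycycline, and with it INPP4B fell by 3.17 (SE 0.24), with a limma adjusted p of 2.07e-07; as for BLNK, no fold is given against so dim a signal. A second probe set, 205376_at, fell by 2.75 (SE 0.18), from 6.12, 6.22 and 6.27 to 3.55, 3.15 and 3.67. The remaining probe sets lay between 2.66 and 3.04 in every group mean and did not pass, so that over the mean of the 4 probe sets the fall was 1.45, with an adjusted p of 3.33e-07.

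**Figure D2:**
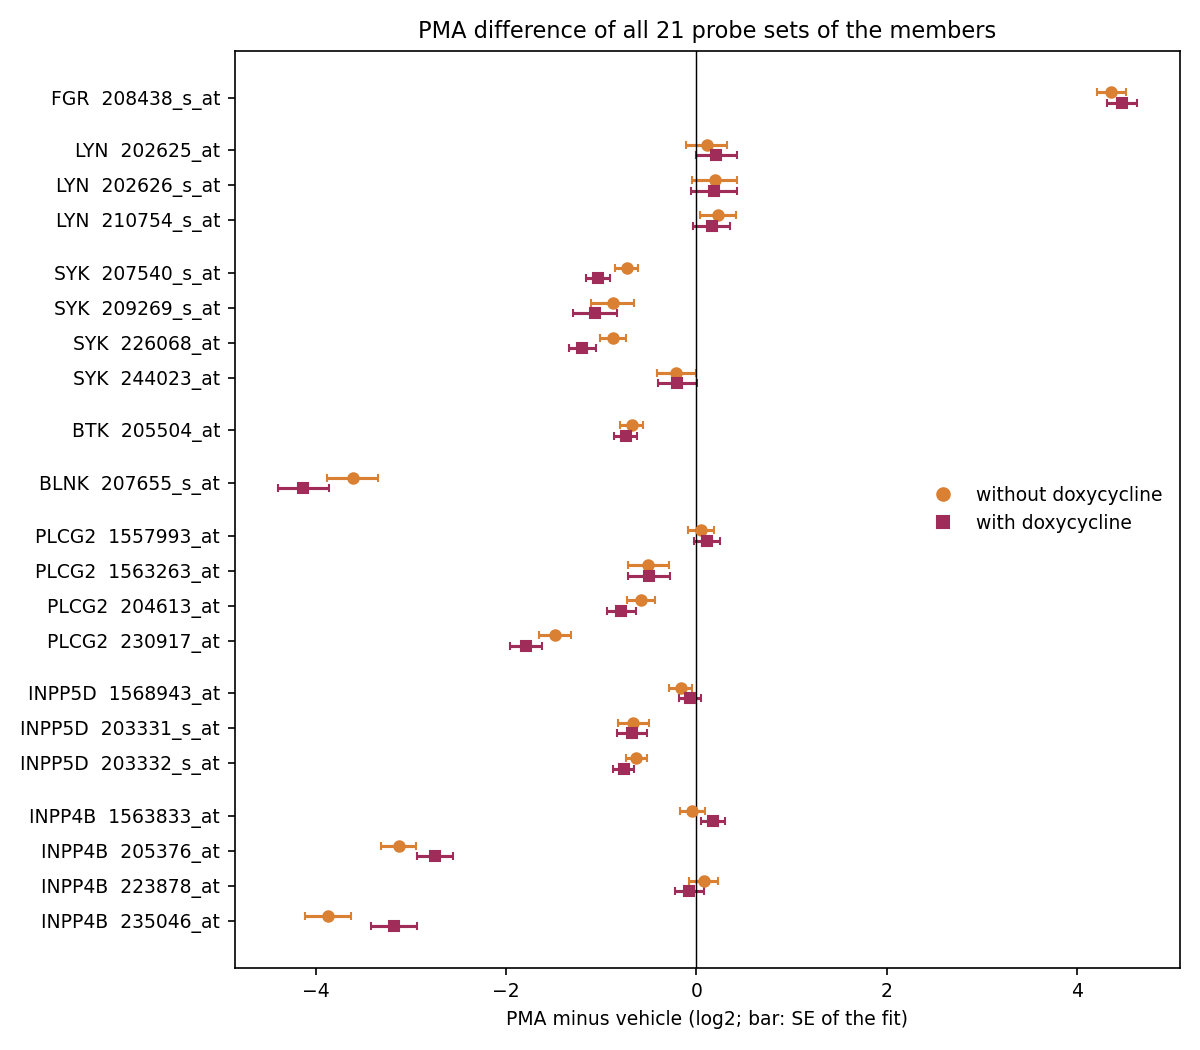
PMA minus vehicle (log2) for all 21 probe sets of the 8 genes, without and with doxycycline; bars are the SE of the fit. FGR lies near 4.4, BLNK and 2 INPP4B probe sets lie below -2.7, and the 3 LYN probe sets lie near 0.

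Over the 8 genes, PMA with doxycycline against vehicle with doxycycline gave 6 that fell (BLNK, BTK, INPP4B, INPP5D, PLCG2 and SYK), against 19.5% of all genes, and 1 that rose (FGR), against 13.0% of all genes. Of their 21 probe sets 11 fell, where 13.8% of all probe sets did, and 1 rose, where 10.7% did. The median difference was -0.78 over the 8 genes and -0.01 over all genes. The response of at least INPP4B and BLNK to PMA was known when the genes were named, and these arrays repeat that treatment. These counts and medians are therefore not independent of the choice, and the shares over all genes include dim genes. Without doxycycline, 2 of the 8 genes were lower by at least 1 (BLNK and INPP4B), as were 6.30% of all genes. In the same contrast 1 was higher by at least 1 (FGR), as were 4.59%. The genes were named with at least part of this contrast known, so nothing is read from its counts.

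For each gene the closest profile over the 12 arrays was sought among all other genes, as the smallest root mean square distance after centring each on its mean (log2). For FGR the closest were the chemokine receptor CCR1 (0.20), LINC01282 (0.26) and the myosin MYO1E (0.27). For BLNK they were LAMP5 (0.25), the defensin DEFB1 (0.31) and NEGR1 (0.32), and for INPP4B it was DPY19L2P2 (0.40). SYK was nearest to ZNF445 (0.08), BTK to CYC1 (0.07), PLCG2 to PLD1 (0.08), INPP5D to ERMAP (0.09) and LYN to WDSUB1 (0.10). These distances are descriptions over 12 arrays that share the PMA step.

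The study's question was which genes depend on ZXDC during PMA treatment, and for these genes doxycycline gave no difference that passed the test. Adjusted p was under 0.05 for 0 of the 8 in PMA, against 0.00506% of all genes, and for 0 of the 8 in vehicle, averaged over both agents and for the interaction, each against 0% of all genes. At an unadjusted limma p under 0.05, 1 of the 8 passed in PMA (SYK, against 6.14% of genes), 1 in vehicle (INPP4B, 2.58%), 2 in the average (INPP4B and SYK, 6.06%) and 0 in the interaction (2.62%). The PMA and doxycycline comparisons share arrays, so their values are given side by side and not as separate evidence.

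SYK had the smallest p of the 8 genes for doxycycline in PMA. The 3 PMA arrays at 9.24, 9.34 and 9.20 lay above the 3 with doxycycline at 8.77, 8.96 and 8.69, and the array of each number was lower with doxycycline, by 0.47, 0.38 and 0.51. The difference was -0.45 (SE 0.12, 95% interval -0.71 to -0.19), with an unadjusted p of 0.00214 and a limma adjusted p of 0.448. With the 6 pairs of same-numbered arrays as blocks, the fit gave an adjusted p of 0.0750, and no alternative brought it under 0.05. On a second SYK probe set, 226068_at, the difference was -0.51 (SE 0.14), again without overlap. The groups overlapped on the other 2, where 209269_s_at differed by -0.45 (SE 0.23) and 244023_at by -0.06 (SE 0.21). In vehicle SYK was lower in 3 of 3 numbered pairs, by 0.29, 0.14 and 0.02, with a difference of -0.15 (SE 0.12), and the interaction was -0.30 (SE 0.17, unadjusted p 0.0979, adjusted p 1.00). The ACTB measure was higher with doxycycline in the same PMA pairs (2.72 against 2.39, 1.32 against 1.12 and 1.64 against 1.01), whereas the GAPDH measure was higher in 2 of the 3 pairs (0.25 against 0.18, 0.19 against 0.15 and 0.17 against 0.18), and the part of RNA quality in the SYK difference was not tested.

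INPP4B was the gene with the widest doxycycline difference in vehicle. Vehicle arrays at 7.09, 7.46 and 7.06 stood above vehicle with doxycycline at 5.72, 6.46 and 6.86, by 1.37, 1.00 and 0.20 in the numbered pairs. The groups did not overlap, which held for 1 of the 8 genes in this direction against 3.47% of all genes. The difference was -0.86 (SE 0.24, 95% interval -1.37 to -0.34), with an unadjusted p of 0.00313 and a limma adjusted p of 1.00. It was -0.54 without vehicle + doxycycline replicate 1 and -0.37 over the mean of the gene's probe sets, and 205376_at differed by -0.48 (SE 0.18). In PMA, where the signal was dim, the difference was -0.16 (SE 0.24), and the interaction was 0.70 (SE 0.34), with an unadjusted p of 0.0594 and an adjusted p of 1.00.

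In PMA, where its signal was dim, BLNK had a wider doxycycline difference than SYK but a larger error. It differed by -0.54 (SE 0.27, 95% interval -1.12 to 0.04), with pairs at 0.03, -0.99 and -0.68, and by -0.03 in vehicle. INPP5D differed by -0.18 (SE 0.11), with PMA arrays from 8.44 to 8.67 above doxycycline arrays from 8.36 to 8.43. Of the 8 genes 2, INPP5D and SYK, had PMA groups that did not overlap and were lower with doxycycline, against 5.90% of all genes, and 5 of 21 probe sets did, against 5.35% of all probe sets. Those were SYK 207540_s_at and 226068_at, INPP5D 203332_s_at, PLCG2 230917_at and INPP4B 223878_at. Probe sets of 1 gene are not independent, and INPP4B 223878_at was dim, with means of 3.04 in PMA and 2.81 with doxycycline. PLCG2 differed by -0.17 (SE 0.15) on its representative probe set and by -0.51 (SE 0.17) on 230917_at, whose unadjusted p was 0.00926 and adjusted p 0.724 over all probe sets. FGR differed by 0.07 (95% interval -0.26 to 0.40), LYN by 0.08 (-0.38 to 0.53) and BTK by -0.05 (-0.31 to 0.20). The median over the 8 genes was -0.16 in PMA and -0.04 in vehicle, and over all genes it was -0.01 and 0.02.

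**Figure D3:**
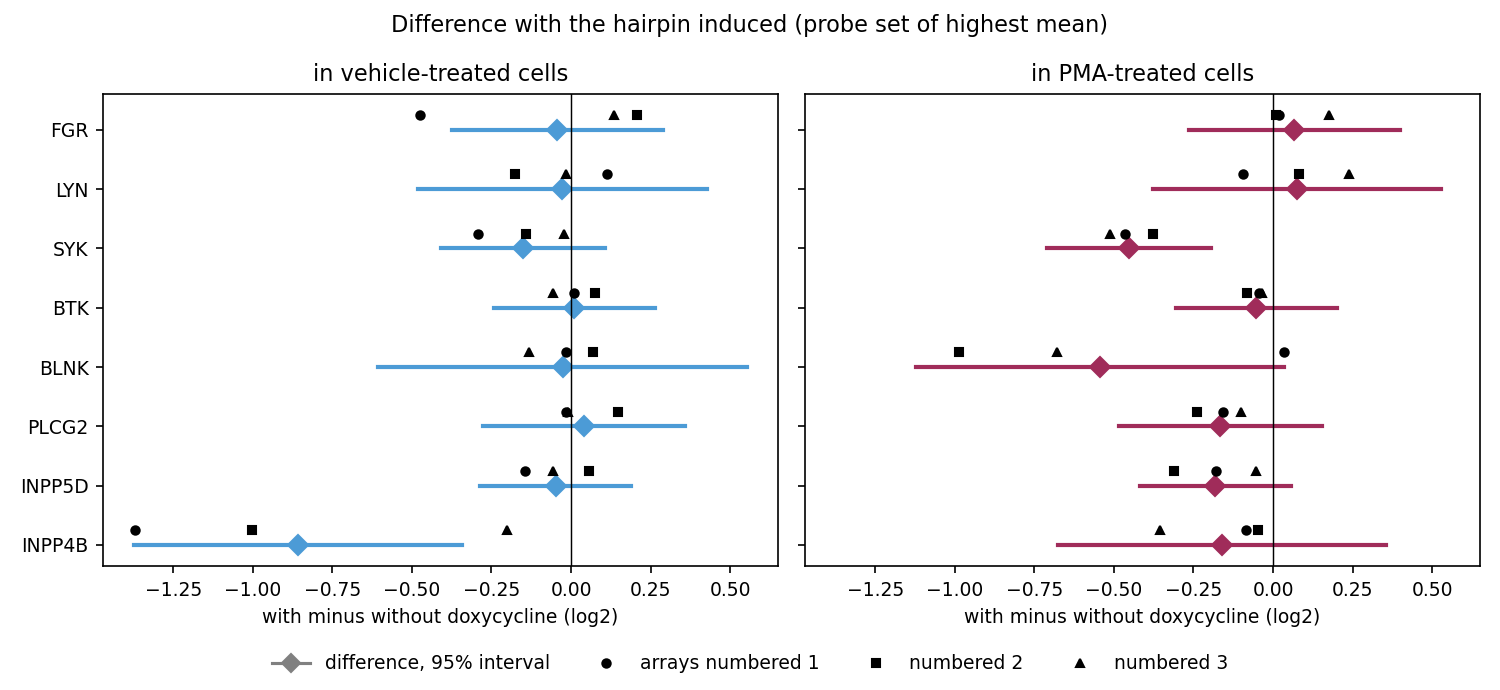
Difference with minus without doxycycline (log2) for the 8 genes in vehicle-treated and in PMA-treated cells. Small black points are the 3 pairs of same-numbered arrays, and the diamond with its bar is the fitted difference with its 95% interval; SYK in PMA and INPP4B in vehicle have intervals below 0.

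Around these genes, 8 lists hold 106 other genes of the pathway, of which 96 were measured. With doxycycline present, PMA raised 24 of the 96 and lowered 25, against 13.0% and 19.5% of all genes, and 47 did not pass the test. Doxycycline itself changed 0 of the 96 in PMA and 0 in vehicle at a limma adjusted p under 0.05, with 10 and 1 at an unadjusted p under 0.05, against 6.14% and 2.58% of all genes.

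Among the other Src-family kinases 1 of 6 measured rose, SRC itself, by 1.15 (SE 0.13, limma adjusted p 9.02e-06), from means of 6.18 to 7.33. Its rise lay between 0.38 and 1.25 over the alternatives. The others did not pass: FYN differed by 0.30, YES1 by -0.01, LCK by -0.12, BLK by -0.08 and FRK by 0.04. FYN passed on replicates 2 and 3 alone. Of the Syk and Tec families beside SYK and BTK, 0 of 3 passed at an adjusted p under 0.05, and ZAP70 had the smallest p (difference 0.30, SE 0.13, adjusted p 0.0926).

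Genes listed here as brakes on these kinases split: 5 of 15 rose and 6 fell. The list includes PTPRC, which does not only restrain them and which did not pass the test. Among the falls, SLA, CSK and DOK1, named for calls that were lost, kept them in 15, 16 and 17 of 21 alternatives. SIRPA, an inhibitory receptor that recruits tyrosine phosphatases, rose by 1.91 (SE 0.11), and PTPN22, a phosphatase that acts on Src-family kinases, fell by 3.56 (SE 0.21). Of 18 measured ITAM chains and scaffold adaptors 5 rose and 5 fell, and 7 were called over the mean of probe sets. Among the falls, GAB1 and VAV2, named for calls that were lost, kept them in 9 and 16 of 21 alternatives. LAT, a membrane scaffold best known from T cells, rose by 3.67 (SE 0.14), and the exchange factor VAV1 fell by 0.85 (SE 0.13). TYROBP and FCER1G, the ITAM chains of myeloid receptors, rose by 3.30 (SE 0.13) and 2.47 (SE 0.19); these 2 were picked after their values were seen.

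In the phospholipase C and calcium release list 3 of 13 rose and 3 fell, led by the calcium channel ITPR1, which rose by 2.74 (SE 0.12), and PLCL2, a catalytically inactive relative of phospholipase C, which fell by 2.87 (SE 0.16). PLCG1, the close relative of PLCG2 and also picked after its values were seen, fell by 0.64 (SE 0.12). PLCB2, named for a call that was lost, rose by 0.60 (SE 0.19) and kept its call in 16 of 21 alternatives.

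PI3-kinase subunits did not move one way. PIK3R5, a regulatory subunit of the class IB enzyme, rose by 1.59 (SE 0.14), PIK3C2A by 0.96 (SE 0.15) and PIK3C2B by 0.47 (SE 0.13). PIK3CG, the catalytic subunit that PIK3R5 regulates, fell by 1.96 (SE 0.12), PIK3R1 by 0.81 (SE 0.23), PIK3R3 by 0.76 (SE 0.13) and PIK3CD by 0.42 (SE 0.11). PIK3CB, PIK3R4, PIK3R6 and PIK3C3 did not pass, at 0.09, 0.33, 0.17 and -0.05, and PIK3CA and PIK3R2 were not measured here. The calls of PIK3C2B, PIK3CD and PIK3R1 were lost in 2, 2 and 3 of 21 alternatives, and PIK3R4 passed in 6 of them.

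Of 18 other phosphoinositide phosphatases 3 rose and 4 fell. MTMR3, a myotubularin, rose by 0.69 (SE 0.13), a call that was lost over the mean of its probe sets, and INPP5A, which acts on the soluble inositol phosphate, fell by 1.36 (SE 0.13). INPP4A and INPPL1 (SHIP2), the relatives of INPP4B and INPP5D, were picked after their values were seen, and they differed by 0.23 (SE 0.15) and 0.00 (SE 0.12), with adjusted p of 0.303 and 0.997. The list named AKT effectors also holds AKT itself and its regulators, and of its 12 measured genes 4 rose and 3 fell. Among them RICTOR, part of a kinase complex that acts on AKT, rose by 0.61 (SE 0.13). The AKT phosphatase PHLPP1 fell by 0.90 (SE 0.20).

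**Figure D4:**
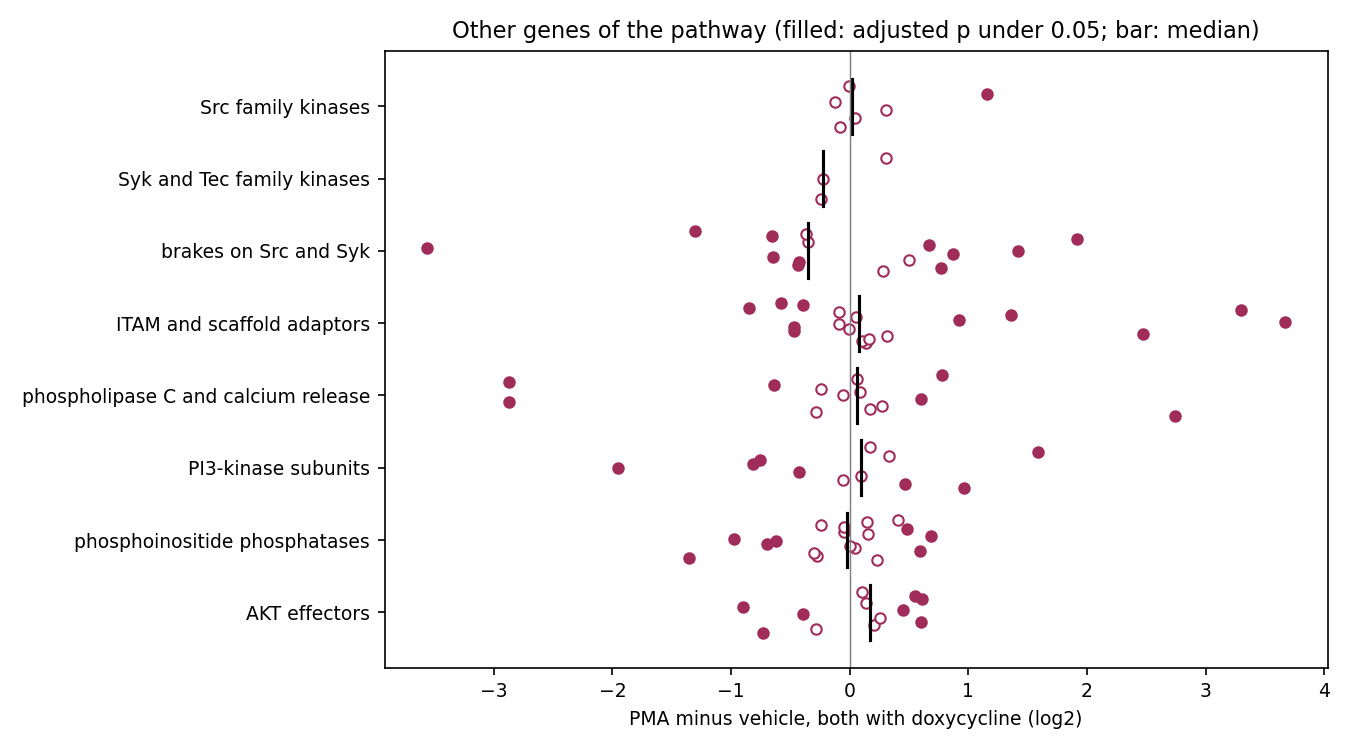
PMA minus vehicle, both with doxycycline (log2), for the 96 measured genes of the 8 pathway lists, one point per gene. Filled points passed an adjusted p under 0.05, and the bar is the list's median; points lie on both sides of 0 in each list.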

How the data were processed

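Values on the log2 scale were used as the authors deposited them: per the submitters' processing notes RMA was used, and its version is not stated in what was used here. RNA was total RNA labelled with a 3' IVT kit, per the labels' protocols, and the labels name the arrays biological replicates. Of 54675 probe sets 62 were controls, 41091 paired with 1 gene, 1801 with several and 11721 with none, and the probe set of highest mean stood for each of 19775 genes, with no filter on dim genes. The 4 group means were estimated from the 12 arrays together by lmFit and eBayes (limma 3.58.1, R 4.3.3; 8 residual and 5.6 prior degrees of freedom). Tests were two-sided, with Benjamini-Hochberg adjustment over all genes or, where a probe set is named, all 54613 probe sets that are not controls, and a gene was called at an adjusted p under 0.05. Intervals are 95% and unadjusted. With 3 arrays a group, their number limits the precision.

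The genes, lists and tests were chosen with earlier results of these data known. Named were the 21 probe sets of the genes, ZXDC, every Src-family kinase and PI3-kinase subunit, and markers that define a cell type. Also named were each other list's largest called rise and fall (or smallest p) and nearest profiles. Exceptions are marked in the text. Same-numbered arrays with and without doxycycline deviated together (r 0.57, 0.25 and 0.31 in vehicle, 0.64, 0.29 and 0.32 in PMA, all over the limit of 0.1). They were therefore shown as pairs within an agent and fitted as pairs in 1 alternative, while the main tests used no pairing. PMA arrays numbered 2 and 3 correlated as highly across numbers (0.39 and 0.30). In vehicle the same arrays gave 0.24 and 0.12 across numbers. On simulated data for doxycycline in PMA, run on 19775 genes, the procedure called 84% of genes raised by 1 (log2). It called 18% of those raised by 0.5, 82% of those lowered by 1 and 98% of those raised by 2. These shares hold for that mix of changes, because an adjusted p depends on how many other genes change. On the measured arrays the same comparison called 1 gene, and the share recovered there was not tested. Alternatives were the replicate block, the 6 pairs, leaving out arrays, the mean of probe sets, a filter on dim genes, other scalings and other variance models.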

Additional observations from a re-analysis of the deposited data

How the results depend on the processing

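For PMA with doxycycline, 7 of the 8 genes were called in every alternative except the one that left out genes with a mean signal under 5.21, where INPP4B was not tested and 6 of 7 were called. All 12 called probe sets kept their call wherever they were tested, and PLCG2 1563263_at was added without PMA + doxycycline replicate 2. With the replicate block over all groups, 7 of the 8 genes were again called, and 54 of the 96 pathway genes against 49 without it. The pathway count was lower in other alternatives, with 40 over the mean of probe sets and 42 without vehicle + doxycycline replicate 3. In the doxycycline comparisons and the interaction 0 of the 8 genes were called in any alternative. The smallest adjusted p there was 0.0750, for SYK in PMA with a block for the 6 pairs. That block changed no call of the 8 genes in these comparisons. Over all genes, doxycycline in PMA gave 1 called gene, and 2 with the replicate block, 53 with the 6 pairs and 9 on replicates 2 and 3 alone. It gave 0 over the mean of probe sets, adjusted over all probe sets, with only the groups compared, and in 8 of the 12 alternatives that left out 1 array (any of PMA + doxycycline, vehicle + doxycycline 2 or 3, PMA 2 or 3, or vehicle 3). In the Src-family list the called genes went from 1 to 2 on replicates 2 and 3 alone, and in the Syk and Tec list from 0 to 1 without PMA + doxycycline replicate 2, which added ZAP70; the cause was not tested. BLNK and INPP4B were dim in PMA, so their falls end near the lowest signals of the array.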
